A study of Rattus norvegicus with 12 samples.

Results

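The genes described here are 10 matricellular and activated fibroblast genes: Tnn and Tnc (tenascin-W and tenascin-C), Postn (periostin), Thbs1, Thbs2, Thbs3 and Thbs4 (the thrombospondins), Sparc, Fn1 (fibronectin) and Fap (fibroblast activation protein). They were taken by symbol from a table of 30206 genes, and all 10 passed the low-count filter that kept 14599 genes. The table came from bulk RNA sequencing of rat pubocaudalis, one of the muscles of the pelvic floor, after simulated birth injury (SBI), in which a balloon distends the vagina. All animals were 3-month-old Sprague-Dawley rats that were injured late in pregnancy, and the comparison asks whether lactation after birth alters the muscle's response to that injury. In the 1wk SBI and 3wk SBI groups the pups were removed and the muscle was taken 1 week or 3 weeks after SBI. In the 1wk SBI + Lac and 3wk SBI + Lac groups the dams nursed their pups up to the same times. Each group had 3 libraries, each a pool of RNA from 2 animals, and the spread given here is between pools and not between single animals. Removal of pups differs from nursing in more than milk production, and uninjured muscle was not analysed here.

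Matricellular proteins are secreted into the extracellular matrix but act mainly as signals there: they bind integrins, collagens and growth factors and change how cells attach, migrate and pull on the matrix. Several of them, among them the tenascins and periostin, are scarce in resting adult tissue and are made by activated fibroblasts during wound repair. In skeletal muscle, tenascin-C and fibronectin also form part of the transient niche around satellite cells, the stem cells of the muscle, and thrombospondin 4 is an adhesive protein of the muscle fiber and of the junction between muscle and tendon.

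All levels are CPM, counts divided by a library size that was scaled with the trimmed mean of M values, written as normalized CPM. They are compared for a gene between libraries and not between genes. Fold changes are log2 fold changes of lactating over non-lactating rats from edgeR's quasi-likelihood test, with their standard error (SE), and p-values are adjusted over all 14599 genes by the Benjamini-Hochberg method. A gene was called when its adjusted p was under 0.05 and its log2 fold change was beyond 1 in either direction. The libraries held 10082734 to 75634391 counts, and the 10 genes had 3 counts or fewer only for Tnn in 3 of the 3-week libraries. As a check of the labelled tissue, all 9 mature myofiber markers and all 13 resident fibroblast markers in the table were detected in all 12 libraries. Because each library is a whole tissue, fewer cells of a type and less RNA per cell cannot be told apart.

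RefSeq promoter windows (build GRCr8) were found by symbol for 8 of the 10 genes, Thbs2 and Fn1 being the others. The 250 bases upstream of the start are shown for 4 of the 5 genes whose lactating and non-lactating libraries did not overlap at 1 week, Sparc being the fifth. Tnn, Tnc and Thbs1 lay lower in the lactating rats and Thbs4 lay higher. The Tnn stretch is chr13:74919790-74920039 on the minus strand, that of Tnc chr5:82476132-82476381 on the minus strand, that of Thbs1 chr3:125510000-125510249 on the plus strand and that of Thbs4 chr2:25760346-25760595 on the minus strand. Each is written 5′ to 3′ along the gene, and capitals mark a match, on either strand, to GGAATG (the core bound by TEAD factors), TATAAA (the TATA box) or CAGACA (a SMAD-binding repeat).
Tnn: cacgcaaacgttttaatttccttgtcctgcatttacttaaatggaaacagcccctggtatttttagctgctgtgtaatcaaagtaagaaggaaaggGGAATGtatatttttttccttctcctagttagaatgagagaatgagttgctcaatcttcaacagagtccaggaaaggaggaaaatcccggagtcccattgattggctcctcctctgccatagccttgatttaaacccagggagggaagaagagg
Tnc: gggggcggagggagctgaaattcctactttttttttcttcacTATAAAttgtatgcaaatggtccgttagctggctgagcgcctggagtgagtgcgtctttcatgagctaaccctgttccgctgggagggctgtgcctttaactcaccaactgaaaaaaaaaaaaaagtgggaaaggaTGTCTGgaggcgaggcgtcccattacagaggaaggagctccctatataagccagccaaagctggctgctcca
Thbs1: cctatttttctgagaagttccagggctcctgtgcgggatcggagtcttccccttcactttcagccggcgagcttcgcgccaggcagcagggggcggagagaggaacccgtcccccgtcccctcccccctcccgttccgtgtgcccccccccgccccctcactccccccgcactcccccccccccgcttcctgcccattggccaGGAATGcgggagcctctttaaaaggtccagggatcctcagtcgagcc
Thbs4: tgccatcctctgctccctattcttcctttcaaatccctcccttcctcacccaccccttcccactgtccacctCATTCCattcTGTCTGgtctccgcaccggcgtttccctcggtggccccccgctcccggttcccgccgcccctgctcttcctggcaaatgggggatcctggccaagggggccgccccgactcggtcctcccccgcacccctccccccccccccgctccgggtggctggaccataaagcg
The GGAATG core was found upstream of Tnn (154 bases before the start), Thbs1 (47 bases) and Thbs4 (178 bases), and also of Sparc, so 4 of the 8 windows of 300 bases held it, against 14.2% of 33469 rat promoter windows. The CAGACA repeat was present in the windows of Tnc, Thbs4 and Sparc, against 21.1% of all windows. The letters TATAAA were present in those of Tnc (208 bases before the start) and Postn (44 bases), against 14.2%. The AP-1 site TGANTCA, the SMAD palindrome GTCTAGAC and the CArG box were found in 0 of the 8, against 7.33%, 0.197% and 1.64% of all windows. None of these motifs overlapped another in the windows of these genes. Base composition differed widely: G and C made up 43.7% of the Tnn window, 52.3% of that of Tnc, 67.0% of that of Thbs1 and 70.0% of that of Thbs4, against a median of 51.7% over all promoters. These matches describe the letters of the windows only.

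At 1 week the tenascins showed the largest differences between lactating and non-lactating rats. Tnn (ENSRNOG00000002548), a tenascin best known from developing bone and the stroma of tumors, was at 13.4, 26.9 and 10.2 normalized CPM in the libraries of 1wk SBI, compared with 0.623, 1.36 and 3.54 in those of 1wk SBI + Lac. The lowest non-lactating library was thus well above the highest lactating one. Tnn fell by 3.15 on the log2 scale (SE 0.60, edgeR adjusted p = 0.0497), to 11.2% of the non-lactating level. It was the 1 member called by edgeR at this time, against a background of 0.164% of all genes tested called lower and 0.0890% called higher. The adjusted p lay just inside the cutoff: it was 0.189 and 0.157 without replicate 1 or 2 of 1wk SBI and 0.157 and 0.202 without replicate 1 or 2 of 1wk SBI + Lac, and passed with either replicate 3 left out (0.0184 and 0.0312). Over these 6 fits the log2 fold change lay between -4.09 and -2.65.

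Tnc (ENSRNOG00000058645), the tenascin that is deposited transiently around regenerating muscle fibers, was at 69.6, 90.4 and 32.0 normalized CPM in 1wk SBI, compared with 16.8, 17.7 and 31.9 in 1wk SBI + Lac. The groups did not overlap, but the lowest non-lactating and the highest lactating library were nearly level. The log2 fold change was -1.53 (SE 0.51, edgeR adjusted p = 0.154), which did not pass, while DESeq2 called it when fitted to the 1-week libraries alone (adjusted p = 0.0297). Within libraries the tenascins did not move in proportion, a comparison chosen after the values were seen. Tnn counts amounted to 19.3%, 29.7% and 31.9% of the Tnc counts without lactation and to 3.71%, 7.66% and 11.1% with it, without overlap.

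The thrombospondins went in different directions at 1 week. Thbs1 (ENSRNOG00000045829), which binds CD36 and CD47 and can release latent TGF-beta, was at 70.9, 41.1 and 46.9 normalized CPM in 1wk SBI, compared with 23.4, 21.9 and 32.8 in 1wk SBI + Lac. All lactating libraries lay below all non-lactating ones, and the log2 fold change was -1.02 (SE 0.31, edgeR adjusted p = 0.116). DESeq2 called Thbs1 lower (adjusted p = 0.0119 on all libraries and 0.000401 on those of 1 week), in fits that called 152 and 288 genes lower over the whole table. Thbs2 (ENSRNOG00000010529), a close relative of Thbs1 made largely by fibroblasts, was at 96.8, 81.0 and 63.4 against 44.7, 40.1 and 66.7 normalized CPM. Its groups overlapped through the highest lactating library, with a log2 fold change of -0.67 (SE 0.27, edgeR adjusted p = 0.217). Thbs3 (ENSRNOG00000059903), one of the pentameric thrombospondins together with Thbs4, was at 19.6, 15.7 and 13.9 against 8.53, 9.97 and 17.6 normalized CPM, again with overlap, and had a log2 fold change of -0.44 (SE 0.31, edgeR adjusted p = 0.470).

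Thbs4 (ENSRNOG00000012471) was the exception. It was at 244, 227 and 179 normalized CPM in 1wk SBI, compared with 288, 245 and 335 in 1wk SBI + Lac, so the groups parted in the opposite direction, if narrowly. The log2 fold change was 0.42 (SE 0.23, edgeR adjusted p = 0.338), which did not pass. Set against Thbs1 within each library, a pair also chosen after the values were seen, there were 3.44, 5.53 and 3.82 Thbs4 counts per Thbs1 count without lactation and 12.3, 11.2 and 10.2 with it. The mean ratio was thus 2.64 times as high in the lactating rats, 11.2 ± 1.02 against 4.26 ± 1.11 (SD, n = 3). At 3 weeks the ratio was 5.05 ± 0.999 without and 4.96 ± 1.32 with lactation (SD, n = 3), with overlap.

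**Figure D1:**
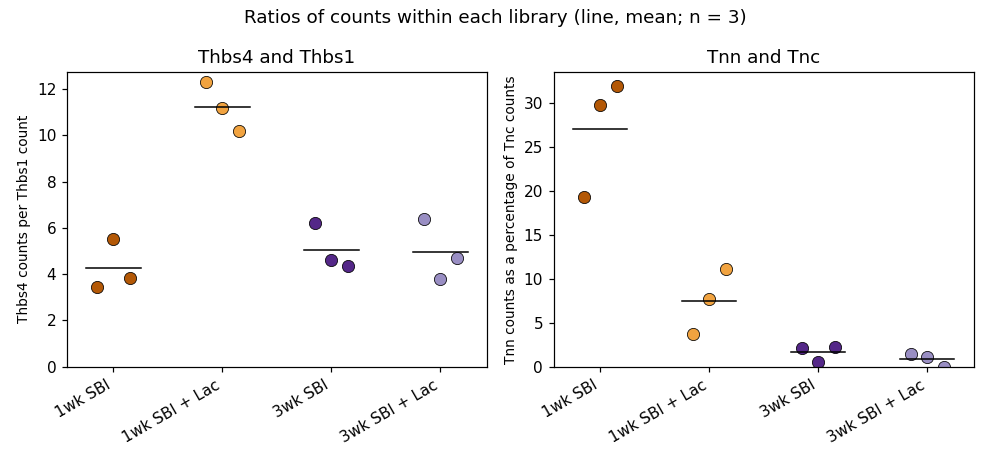
Thbs4 counts per Thbs1 count (left) and Tnn counts as a percentage of Tnc counts (right) in each of the 12 libraries, one point per library with the group mean as a line. The 1wk SBI + Lac libraries had 10.2 or more Thbs4 counts per Thbs1 count and no other library had more than 6.39, while the Tnn percentage was at least 19.3 in 1wk SBI, compared with at most 11.1 elsewhere.

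The adhesive and fibroblast members had smaller differences at 1 week. Postn (ENSRNOG00000012660), which binds collagen and integrins, was at 678, 463 and 434 normalized CPM in 1wk SBI, compared with 239, 306 and 507 in 1wk SBI + Lac. Fn1 (ENSRNOG00000014288), the main adhesive glycoprotein of provisional matrix, was at 1070, 749 and 628 against 425, 450 and 719. In each of these genes the highest lactating library lay within the non-lactating range, and the log2 fold changes were -0.58 (SE 0.49) for Postn and -0.62 (SE 0.31) for Fn1, with edgeR adjusted p = 0.557 and 0.298.

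Sparc (ENSRNOG00000012840), a collagen-binding protein needed for orderly fibril assembly, was at 1250, 982 and 947 normalized CPM in 1wk SBI, compared with 600, 742 and 892 in 1wk SBI + Lac. The groups did not overlap, with a log2 fold change of -0.51 (SE 0.22, edgeR adjusted p = 0.237). Fap (ENSRNOG00000005679), a cell-surface protease used as a marker of activated fibroblasts, was at 24.8, 17.9 and 19.3 against 10.4, 17.7 and 20.4 normalized CPM. The groups overlapped, and the log2 fold change was -0.35 (SE 0.27, edgeR adjusted p = 0.505).

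Over the 10 genes at 1 week, 9 log2 fold changes were below 0, against 50.5% of all genes tested, and their median was -0.60 against 0.00 over all genes. The median was -0.37 without replicate 1 of 1wk SBI and -0.91 without replicate 3 of 1wk SBI + Lac. Lactating libraries all lay below non-lactating ones for 4 of the 10 (Tnn, Tnc, Thbs1 and Sparc), against 14.1% of all genes, and all above for Thbs4 alone, against 14.3%. An unadjusted p under 0.05 was reached by 5 of the 10, all of them lower, against 9.16% of all genes. The genes share libraries and vary together, so these counts are not 10 independent observations.

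**Figure D2:**
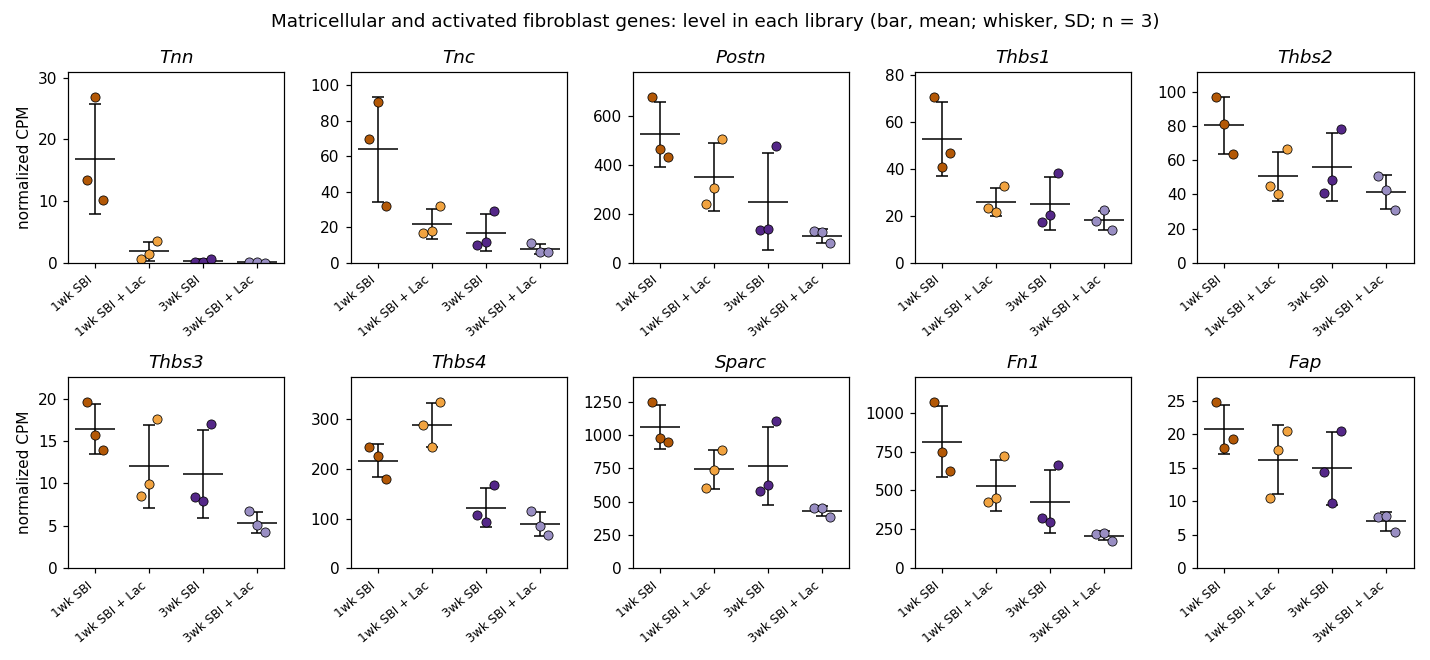
Normalized CPM of the 10 genes in each library (points, in the order of replicates 1 to 3), with the mean as a bar and the SD as a whisker for the 3 libraries of a group and a linear axis from 0 in every panel. Tnn ranged from 10.2 to 26.9 in 1wk SBI and did not exceed 3.54 elsewhere, Thbs4 was highest in 1wk SBI + Lac, and replicate 3 of 3wk SBI stood above its group in all 10 panels.

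At 3 weeks no member was called by edgeR, against a background of 0.534% of genes called lower and 0.205% called higher. An unadjusted p under 0.05 was reached by 5 members, Postn, Thbs3, Sparc, Fn1 and Fap. The share of all genes with such a p and a lower level was 11.2%. DESeq2 called 2 of these members, Thbs3 and Fap. Its fits called 186 genes lower over the whole table on all libraries and 132 on those of 3 weeks. All 10 log2 fold changes were below 0, against 52.3% of all genes, and the median was -1.06 against -0.02. The lactating libraries lay below all non-lactating ones for those 5 genes, against 10.4% of all genes, and above them for none, against 11.9%.

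Fap was at 14.3, 9.78 and 20.5 normalized CPM in 3wk SBI, compared with 7.68, 7.81 and 5.39 in 3wk SBI + Lac. Its log2 fold change was -1.08 (SE 0.29, edgeR adjusted p = 0.0700; DESeq2 adjusted p = 0.00548). Sparc was at 581, 622 and 1110 against 449, 455 and 387, and had a log2 fold change of -0.84 (SE 0.23, edgeR adjusted p = 0.0621). Sparc passed without replicate 1 of 3wk SBI (log2 fold change -1.01, edgeR adjusted p = 0.0375) and Fap without replicate 2 (-1.30, adjusted p = 0.0313), while without replicate 3 Sparc was at -0.48 and Fap at -0.72 (edgeR adjusted p = 0.215 and 0.291). In each gene the lactating libraries were close together and the non-lactating ones spread upward.

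Fn1 was at 323, 300 and 661 normalized CPM in 3wk SBI, compared with 222, 228 and 175 in 3wk SBI + Lac, a log2 fold change of -1.04 (SE 0.31, edgeR adjusted p = 0.0916). Postn was at 134, 138 and 477 against 128, 124 and 79.3, a log2 fold change of -1.18 (SE 0.50, edgeR adjusted p = 0.219). Thbs3 was at 8.37, 7.86 and 17.0 against 6.74, 5.07 and 4.29, a log2 fold change of -1.07 (SE 0.34, edgeR adjusted p = 0.104). In Postn the groups were parted by the distance from 128 to 134 alone, and the mean of the non-lactating group was carried by 1 library.

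In the remaining 5 genes the groups overlapped at 3 weeks. Tnc was at 10.3, 11.6 and 29.0 against 11.3, 6.21 and 6.05 normalized CPM, with a log2 fold change of -1.16 (SE 0.55, edgeR adjusted p = 0.263). The other thrombospondins overlapped as well: Thbs1 was at 17.3, 20.3 and 38.2 against 18.0, 22.4 and 14.2, and Thbs2 at 41.0, 48.5 and 78.3 against 50.9, 42.3 and 31.0. Thbs4, which had been higher in lactating rats at 1 week, was at 107, 93.6 and 167 against 115, 85.0 and 66.5. The log2 fold changes were -0.49 (SE 0.32) for Thbs1, -0.44 (SE 0.28) for Thbs2 and -0.46 (SE 0.23) for Thbs4, with edgeR adjusted p of 0.412, 0.399 and 0.271.

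Tnn had few counts in all but 1 library at 3 weeks. It had 2, 1 and 55.015 estimated counts in 3wk SBI and 5, 4 and 0 in 3wk SBI + Lac, or 0.215, 0.0619 and 0.660 against 0.163, 0.065 and 0.00 normalized CPM. A count of 0 in that last library allows a level of up to 0.330 normalized CPM, from 3 counts, a limit that covers counting error only. The log2 fold change of -2.31 (SE 1.18, edgeR adjusted p = 0.292) was -0.39 without replicate 3 of 3wk SBI. The deepest lactating library, with 70187854 counts, held 4 counts of Tnn, so the low values were not confined to shallow libraries.

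Replicate 3 of 3wk SBI, the deepest library, had the highest level in its group for all 10 genes. The 10 genes together took 0.286% of its counts, against 0.114% and 0.117% in the other 3wk SBI libraries and 0.0653% to 0.0899% in 3wk SBI + Lac. Its levels reached or passed the lowest 1wk SBI library for 6 of the 10 genes, which none of the other 3-week libraries did for any. Without it the median log2 fold change at 3 weeks was -0.43, still with 10 of 10 genes below 0, Postn was at -0.29 and Thbs1 at -0.02. The largest values that remained were -0.72 for Fap and -0.58 for Fn1. The macrophage and leukocyte markers summed to 809 normalized CPM there against 355 and 392 in the other 3wk SBI libraries, and the mature myofiber markers to 121000 against 148000 and 164000. Their part in the result was not tested.

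**Figure D3:**
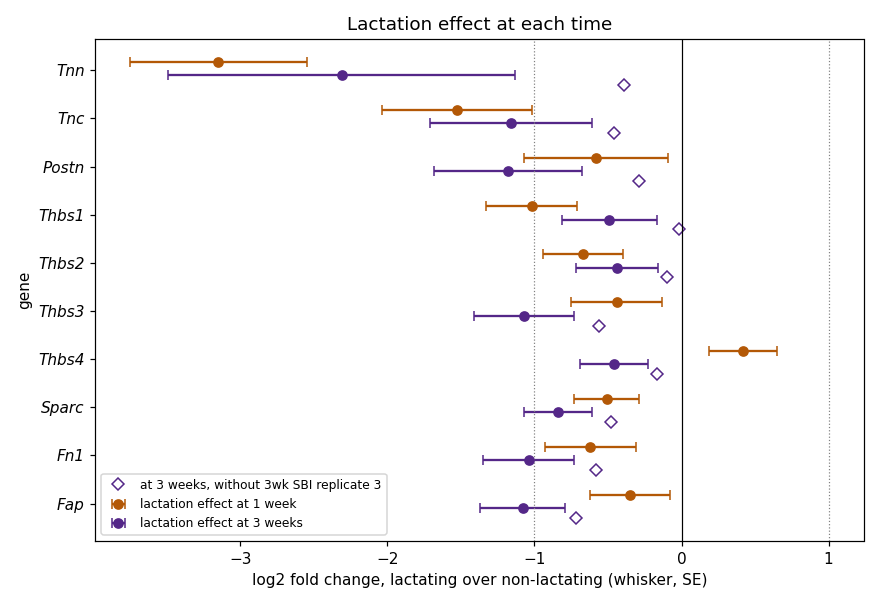
Log2 fold change of lactating over non-lactating rats for each gene at 1 week and 3 weeks (filled circles, whiskers show the SE) and at 3 weeks without replicate 3 of 3wk SBI (open diamonds), with dotted lines at the cutoff of 1 in each direction. Thbs4 at 1 week is the 1 value above 0, and the diamonds lie nearer to 0 than the 3-week circles for all 10 genes.

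The lactation effect itself was compared between the times. No gene of the 10 was called for a change of the effect by edgeR, with an adjusted p of 0.999 for each, against 0.00685% of genes called lower and 0 called higher, and DESeq2 called 0. An unadjusted p under 0.05 was reached by Thbs4 alone, against 2.75% of genes with a lower value, and its effect went from 0.42 at 1 week to -0.46 at 3 weeks, a change of -0.88 (SE 0.32, unadjusted p = 0.0176 in edgeR). The change was 0.84 (SE 1.57) for Tnn and 0.53 (SE 0.44) for Thbs1, whose differences were larger at 1 week. It was -0.60 (SE 0.70) for Postn and -0.73 (SE 0.40) for Fap, whose differences were larger at 3 weeks. With these errors the effects at the times were not shown to differ for any member.

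The order of the group means was nearly the same for every gene. The level was highest in 1wk SBI for 9 of the 10 genes and in 1wk SBI + Lac for Thbs4, and lowest in 3wk SBI + Lac for all 10. In 8 genes the 1-week groups ranked above the 3-week groups. Thbs2 and Sparc had 3wk SBI in the second place, where it overlapped the neighbours on either side. The second and the third group in this order overlapped for all genes but Thbs4, whose 1-week libraries (179 to 335 normalized CPM) all lay above its 3-week libraries (66.5 to 167).

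All 10 genes had a lower mean at 3 weeks than at 1 week in each arm, against 51.0% of all genes without lactation and 52.3% with it, and the median log2 fold changes were -0.87 and -1.26. Without lactation Tnn was called, falling by 5.19 on the log2 scale (SE 0.73, edgeR adjusted p = 0.00642), against 1.10% of genes called lower and 0.363% called higher. In the lactating arm Thbs4 and Fn1 were called, against 0.685% of genes called lower and 0.0890% called higher. Thbs4 fell by 1.70 (SE 0.24, edgeR adjusted p = 0.00433) and Fn1 by 1.35 (SE 0.31, edgeR adjusted p = 0.0491), and Tnn stood at -4.35 (SE 0.99, edgeR adjusted p = 0.0530). Fn1 missed the cutoff with any 1 of the 6 libraries left out (adjusted p from 0.0779 to 0.198), while Tnn and Fap passed without replicate 1 of 1wk SBI + Lac (0.0373 and 0.0309). Without replicate 3 of 3wk SBI, 7 of the 10 genes were called in the non-lactating arm (Tnn, Tnc, Postn, Thbs1, Thbs3, Thbs4 and Fn1), where 3.03% of all genes tested were called lower, and without replicate 3 of 1wk SBI Tnc joined Tnn (adjusted p = 0.0311). The 1-week columns hold whole counts and the 3-week columns hold estimated counts with decimals, so time and the way of counting cannot be told apart in these values. These contrasts also share their libraries with the lactation contrasts.

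**Figure D4:**
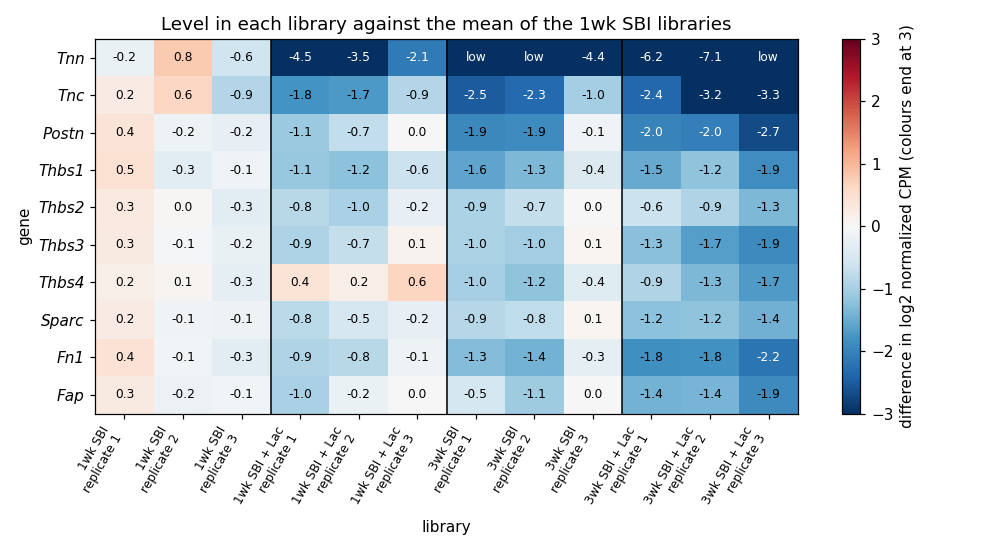
Difference of each gene's log2 normalized CPM (prior count 2) in every library from its mean over the 3 libraries of 1wk SBI, with colours that end at 3 in each direction and black lines between groups; "low" marks libraries with 3 counts or fewer, where the value depends on the prior count. Thbs4 is the only row above 0 in all of 1wk SBI + Lac, and the column of 3wk SBI replicate 3 is nearer to 0 than the columns beside it.

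The 10 genes varied together between libraries. After the mean of each time point was removed, Pearson's r of log2 normalized CPM over the 12 libraries ranged from 0.19 to 0.98 over the 45 pairs, with a median of 0.86. The lowest values belonged to Thbs4, with r = 0.19 to Tnn and 0.22 to Thbs1. After the mean of each group was removed the range was 0.53 to 0.99 with a median of 0.84, and Thbs4 then had r = 0.82 to Tnn and 0.72 to Thbs1. Within the groups Thbs4 thus followed the others from library to library. The libraries share scaling and tissue composition across genes, and these values are descriptions. In 1wk SBI, replicate 1 had the highest level for 8 of the 10 genes, in 1wk SBI + Lac replicate 3 for all 10, and in 3wk SBI + Lac replicate 3 had the lowest for all 10.

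The genes outside the 10 with the most similar pattern, by r over the 12 libraries after removal of the time means, are given for each gene. Postn was closest to Col5a2 (r = 0.99) and Fndc1 (0.98), Fn1 to Ssc5d and Col5a1 (0.99 each), Sparc to Loxl2 and C1qtnf6 (0.99 each) and Thbs3 to Col3a1 and Ssc5d (0.98 each). Tnc was closest to Igf1 (0.97) and Igfbp4 (0.96), Thbs1 to Dbn1 and Pdlim4 (0.97 each), Thbs2 to Txndc5 (0.98) and Ywhaz (0.97), and Fap to Scn2b (0.96) and Papss1 (0.95). Tnn was closest to Slc39a11 (0.98) and Ptk7 (0.95). Thbs4 had no neighbour as close, Sgce reaching 0.89 and Tmem184b 0.87.

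Among 19 other matricellular genes that were tested, edgeR called 1 at 1 week and 0 at 3 weeks. An unadjusted p under 0.05 was reached by 5 and 7 of them, where 2762 and 3082 of the 14599 genes tested reached it in either direction. DESeq2 on all libraries called 2 at each time (Ccn4 and Spp1, then Spp1 and Spock2). Over the whole table it called 152 genes lower and 36 higher at 1 week, and 186 and 56 at 3 weeks. The DESeq2 calls of the gene lists below are from this fit as well. Spp1 (osteopontin), a ligand of integrins and CD44 made by macrophages and injured tissue, was at 28.3, 56.3 and 28.7 normalized CPM in 1wk SBI, compared with 4.52, 3.53 and 5.90 in 1wk SBI + Lac. It fell by 3.01 on the log2 scale (SE 0.39, edgeR adjusted p = 0.0146), and its lactating libraries all lay far below the non-lactating ones. At 3 weeks it was at -1.79 (SE 0.45, edgeR adjusted p = 0.0635). Ccn4, a member of the CCN family of matricellular proteins, was at 6.63, 5.52 and 5.51 against 2.59, 1.73 and 1.94 normalized CPM at 1 week, without overlap (log2 fold change -1.5, SE 0.34, edgeR adjusted p = 0.0556). The list as a whole had medians of -0.16 at 1 week and -0.29 at 3 weeks, and 13 of the 19 genes were below 0 at each time. Spock2, a proteoglycan related to Sparc, had the opposite sign at 3 weeks, at 6.45 normalized CPM without lactation and 14.4 with it (log2 fold change 1.20, SE 0.31, edgeR adjusted p = 0.0565).

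Of 29 myofibroblast and activated fibroblast genes none was called by edgeR at either time. Over the whole table DESeq2 on all libraries called 152 and 186 genes lower at 1 week and 3 weeks. Among these 29 genes it called 2 and 1 lower. An unadjusted p under 0.05 in either direction was reached by 11 at 1 week and 16 at 3 weeks, where 2762 and 3082 of the 14599 genes tested reached it. Their medians were -0.53 and -0.70, with 26 and 23 genes below 0, and the lactating libraries lay below all non-lactating ones of the same time for 11 and 12 of them, against 14.1% and 10.4% of all genes. Adam12, a metalloprotease of activated mesenchymal cells, was at 52.1, 31.5 and 28.8 normalized CPM in 1wk SBI, compared with 7.77, 8.75 and 18.5 in 1wk SBI + Lac (log2 fold change -1.67, SE 0.51, edgeR adjusted p = 0.128). Lrrc15, a marker of myofibroblasts, had a log2 fold change of -1.43 (SE 0.47) and S100a4 of -1.32 (SE 0.36), with edgeR adjusted p of 0.137 and 0.101. Col1a1, the main fibrillar collagen chain, was at 702, 580 and 1760 against 512, 472 and 260 at 3 weeks (log2 fold change -1.29, SE 0.46, edgeR adjusted p = 0.141). The median at 3 weeks was -0.24 without replicate 3 of 3wk SBI.

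The cell-surface partners of these proteins had medians nearer to 0. Of 22 receptors and binding partners 0 were called at either time by edgeR or by DESeq2 on all libraries. At 1 week and 3 weeks 2 and 7 had an unadjusted p under 0.05, and the median was -0.09 at each time. Over all 14599 genes tested 2762 and 3082 had such a p, in either direction. Itga9, which pairs into an integrin that binds tenascin-C and osteopontin, had a log2 fold change of -0.74 at each time (SE 0.25 and 0.26, edgeR adjusted p = 0.135 and 0.131). Of 18 genes of the TGF-beta pathway, which induces several of the 10 genes in fibroblasts, 0 were called at either time by the same fits. Against that same background 4 and 6 of the 18 had an unadjusted p under 0.05, and their medians were -0.06 and -0.07. Tgfb1 itself was at 23.5 normalized CPM on average without lactation and 15.7 with it at 1 week (log2 fold change -0.58, SE 0.24, edgeR adjusted p = 0.222). The inhibitor Smad7 was at 6.57 and 10.8 in the 3-week groups (log2 fold change 0.72, SE 0.20, edgeR adjusted p = 0.0647).

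Markers of the cells that could hold these transcripts were read beside them. For these marker lists, here and below, the background of an unadjusted p under 0.05 in either direction was 2762 of the 14599 genes tested at 1 week. At 3 weeks it was 3082. Resident fibroblast markers (13 tested) were not called at 1 week by edgeR or by DESeq2 on all libraries. Their median was -0.05, and 5 had an unadjusted p under 0.05. Their summed level was 1680 to 2050 normalized CPM without lactation and 2070 to 2440 with it, with Gsn (gelsolin) as the largest contributor, at a mean of 634 and 1150 (log2 fold change 0.86, SE 0.21, edgeR adjusted p = 0.0651). Of the 13, 7 were below 0 and 6 above. The next most abundant, Dcn (decorin) and Lum, were at 470 and 454 and at 204 and 139, so the higher sum rested on Gsn. At 3 weeks 1 of the 13 was called: Col15a1, a collagen chain of basement membrane zones, fell by 1.07 on the log2 scale (SE 0.13, edgeR adjusted p = 0.00177), from a mean of 160 to 76.4 normalized CPM.

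Macrophage and leukocyte markers mostly lay lower in lactating rats at 1 week, as did most of the 10 genes. None of these markers was called then by edgeR or by DESeq2 on all libraries. At 1 week 10 of 11 were below 0 (median -0.58, 4 with an unadjusted p under 0.05), and their summed level was 509 to 518 normalized CPM without lactation and 309 to 423 with it. Lactating libraries all lay below non-lactating ones for 8 of the 11, against 14.1% of all genes. Cd68 had an adjusted p of 0.0417 in edgeR but a log2 fold change of -0.96 (SE 0.19) that missed the cutoff. At 3 weeks it was called, falling by 1.08 (SE 0.20, edgeR adjusted p = 0.0150), and the sums were 355 to 809 against 320 to 550. The 3-week median of the 11 was -0.52, and -0.19 without replicate 3 of 3wk SBI. With all libraries, 3 of the 11 lay lower without overlap at 3 weeks, against 10.4% of all genes. Platelet markers, which bear on Thbs1 because platelets store its protein, summed to 9.11 to 10.7 normalized CPM without lactation and 6.13 to 8.00 with it at 1 week. Pf4 made up most of this, Ppbp was at 0 in all 12 libraries and 2 to 4 of the 6 markers were at 0 in any library. The part of these cells in the result was not tested.

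The medians of mature and of regenerating muscle fiber transcripts lay on opposite sides of 0. Markers of mature myofibers (9 tested) were above 0 for all 9 at 1 week, with a median of 0.50, and their summed level was 79200 to 125000 normalized CPM without lactation and 126000 to 150000 with it. At 3 weeks 7 of the 9 were above 0, the median was 0.34 and the sums were 121000 to 164000 against 179000 to 205000. Genes of regenerating myofibers and myoblasts (10 tested) had medians of -1.0 and -0.97, with 9 and 8 genes below 0, and sums of 1670 to 3660 against 921 to 1350 at 1 week. Without replicate 3 of 3wk SBI the 3-week median was -0.43. No gene of either list was called by edgeR at either time. At an unadjusted p under 0.05 were 7 and 2 mature and 7 and 4 regenerating genes. DESeq2 on all libraries called 4 and 2 regenerating genes lower, where 152 and 186 genes were called lower over the whole table. The part of fiber content in the result was not tested.

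Tendon and skeletal markers were read beside Thbs4 and Tnn. Tendon markers (8 tested) had a median of -0.05 at 1 week, with sums of 298 to 415 normalized CPM without lactation and 270 to 431 with it. At 3 weeks the median was -0.81, 7 of the 8 were below 0, 4 had an unadjusted p under 0.05, and the sums were 333 to 521 against 148 to 254, without overlap. The median was -0.35 without replicate 3 of 3wk SBI. With all libraries Scx, a tendon transcription factor, was called higher (log2 fold change 1.06, SE 0.24, edgeR adjusted p = 0.0417) and Cilp lower (log2 fold change -1.11, SE 0.25, edgeR adjusted p = 0.0408). Cilp made up most of the 3-week sums, at a mean of 358 normalized CPM without lactation and 166 with it, while Scx was at 9.53 and 19.8. Bone and cartilage markers were lower beside Tnn at 1 week, with sums of 9.70 to 12.2 normalized CPM without lactation and 6.98 to 9.05 with it, without overlap. At 3 weeks the sums were 6.50 to 8.82 and 6.27 to 8.92. In any library 3 to 10 of the 16 were at 0, and the 6 that were tested had medians of -1.19 and -0.02. Of these 6, 4 were below 0 and 2 above at 1 week, and 3 were below and 3 above at 3 weeks. At 1 week 3 of the 6 had an unadjusted p under 0.05 and edgeR called 0. DESeq2 on all libraries, which called 152 genes of the whole table lower, called Mmp9 lower, named here after its values were seen. The 1-week median was -0.43 over the 5 tested without replicate 1 of 1wk SBI and -2.06 over the 8 tested without replicate 3. Matn1 was at 0 in every library, and Bglap and Mepe in every library outside 1wk SBI. Acan (aggrecan), a cartilage proteoglycan, averaged 0.700 normalized CPM without lactation and 0.0408 with it at 1 week (log2 fold change -4.05, SE 0.89, edgeR adjusted p = 0.0506). Acp5 lay lower too, at 3.57 and 2.41 (log2 fold change -0.56, SE 0.41, edgeR adjusted p = 0.478). Alpl, the most abundant marker of the list, went the other way, at 3.95 and 5.03 (log2 fold change 0.35, SE 0.23, edgeR adjusted p = 0.424). At 3 weeks Alpl was at 3.2 and 5.5, without overlap (log2 fold change 0.87, SE 0.25, edgeR adjusted p = 0.0757). The part of such tissue in the Tnn values was not tested.

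Vessel and nerve markers were read last. Medians at 1 week and 3 weeks were -0.06 and -0.09 for 7 endothelial markers, 0.22 and 0.01 for 7 smooth muscle and pericyte markers and -0.05 and 0.19 for 6 Schwann cell markers. Of these, 0 were called by edgeR or by DESeq2 on all libraries. At an unadjusted p under 0.05 were 2 smooth muscle markers at 1 week and 2 endothelial markers at 3 weeks. The 6 milk protein transcripts listed as mammary markers were at 0 in the 1wk SBI libraries and summed to at most 2.89 normalized CPM in lactating rats at 1 week and at most 39.4 at 3 weeks.

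**Figure D5:**
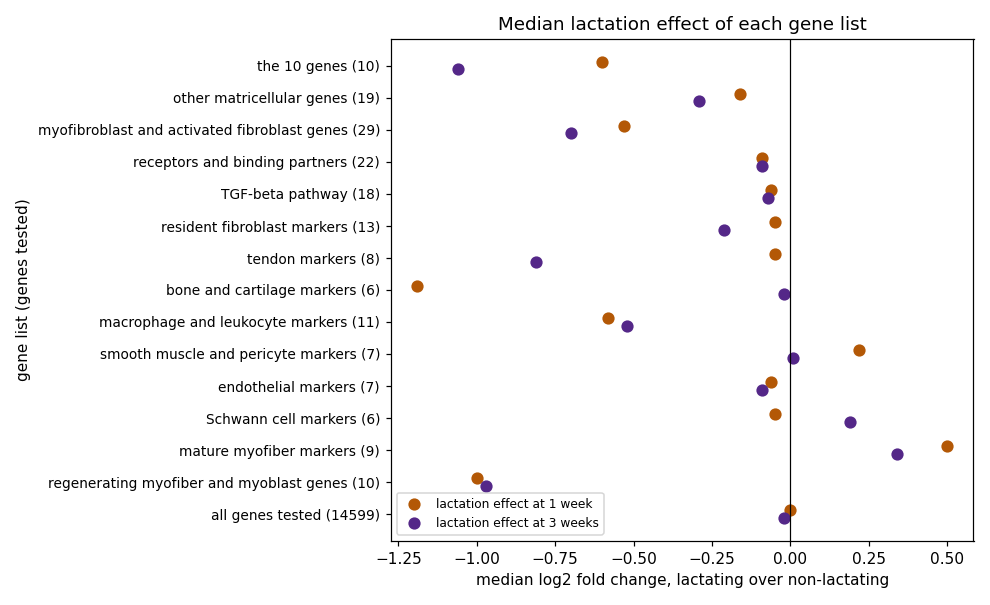
Median log2 fold change of lactating over non-lactating rats at each time for the 10 genes, for other gene lists and for all genes tested, with the number of genes tested in parentheses. The 10 genes (-0.60 and -1.06), the myofibroblast genes (-0.53 and -0.70), the regenerating myofiber genes (-1.0 and -0.97) and the macrophage and leukocyte markers (-0.58 and -0.52) lie furthest below 0 at both times. Bone and cartilage markers do so at 1 week alone (-1.19) and tendon markers at 3 weeks alone (-0.81), and mature myofiber markers (0.50 and 0.34) lie above.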

How the data were processed

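RNA was isolated from the pubocaudalis, pooled from 2 rats per library and sequenced with a stranded mRNA kit. The table deposited by the authors holds, for the 6 libraries of 1 week, whole-number counts per gene that were not scaled. For the 6 libraries of 3 weeks the deposited values are estimated counts with decimals (26.6% to 44% of values), which were rounded here. Salmon is named in the submitters' processing notes without a version. The aligner and genome build are not given in the sources used here.

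Groups were taken from the labels. All 12 libraries (10082734 to 75634391 counts) were fitted in 1 model with edgeR 4.0.16 (R 4.3.3): trimmed mean of M values scaling, filterByExpr, which kept 14599 of 30206 genes, and the robust quasi-likelihood test, with Benjamini-Hochberg adjustment over all genes tested. The script was tested on simulated data. The study's own cutoffs were used, and DESeq2 1.42.0 was an alternative. Other alternatives changed the scaling, the filter, the depth and the libraries, or added a replicate block. Nothing says that the pools of a group were separate litters or batches, so p-values measure the spread between pools.

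The 10 genes and the other gene lists were chosen with earlier results of these data known. Named from each other list were the genes past both cutoffs or, where fewer than 3 passed, up to 3 with the largest change whose mean reached 1 normalized CPM in any group, and up to 3 of the most abundant markers. Spp1, Spock2 and Acan are among these. For similarity, the 2 genes with the highest r were named. Zero counts were given an upper limit of 3 counts. The design assumed counts throughout, and the rounding of estimated counts kept its test.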

Additional observations from a re-analysis of the deposited data

How the results depend on the processing

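The signs of the lactation effects were stable and their calls were not. At 1 week, all values of the 10 genes kept their sign under every alternative, but the 1 call (Tnn) became 0 with upper-quartile scaling, with edgeR on the compared libraries alone, without a low-count filter and with at least 10 counts required in every library, where Tnn was not tested. DESeq2 called 2 on all libraries and 3 on those compared, where 152 and 288 genes were called lower over the whole table. Leaving out 1 library gave 0 to 1 calls. At 3 weeks DESeq2 called 2 in either form against 0, with 186 and 132 genes called lower over the whole table. Leaving out 1 library gave 0 to 1. For 3 weeks against 1 week without lactation (1 call), DESeq2 called 3 on all libraries and 2 on those compared, with 229 and 215 genes lower over the whole table. The 10-count filter left 0, and leaving out 1 library gave 1 to 7. With lactation (2 calls), upper-quartile scaling, no filter and thinning to equal depth each gave 1, DESeq2 5 and 7, edgeR on the compared libraries 5, and leaving out 1 library 1 to 3. Over the whole table these DESeq2 fits called 212 and 205 genes lower, and edgeR on the compared libraries called 163 (1.19%). The cause of these differences was not tested. The change of the effect gave 0 calls throughout. Its sign reversed with 1 library left out for Postn (-0.90 to 0.29), Sparc (-0.50 to 0.03), Fn1 (-0.67 to 0.04) and Tnc (-0.01 to 1.07), and its median over the 10 genes went from -0.38 to 0.16 without replicate 3 of 3wk SBI.

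Replicate numbers did not pair the samples: libraries of the same number correlated at -0.233 to -0.0503 after removal of the group means. With the replicate number as a block, 0 genes were called for lactation at 1 week (Tnn: log2 fold change -3.38, edgeR adjusted p = 0.0714) and 1 for 3 weeks against 1 week with lactation, and over all genes 3 were called lower and 5 higher at 1 week against 24 and 13. DESeq2 on the compared libraries called 288 lower and 44 higher there. At 3 weeks Tnn rested on 0 to 5 counts in 5 of the 6 libraries, deep and shallow ones among them, which limits what can be said of it.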
